A study of Mus musculus with 22 samples.

Results

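The dual-specificity MAP kinase phosphatases are described here in sorted nuclei of the mouse hippocampus contralateral to a kainate injection. Their 10 genes (Dusp1, Dusp2, Dusp4, Dusp5, Dusp6, Dusp7, Dusp8, Dusp10, Dusp14 and Dusp16) were chosen by gene symbol from the 53379 genes of the count table, and all 10 were among the 40714 genes tested. Kainate (70 nl, 20 mM), an agonist of glutamate receptors that elicits status epilepticus, or NaCl in sham mice was injected above the right hippocampus of adult male C57/BL6N mice, which were acquired at 8 weeks of age and acclimatized for 4 weeks. Left hippocampi were taken after 24 h from 8 mice per treatment and combined into 3 pools, 1 of 4 mice and 2 of 2 mice. Nuclei were sorted by the neuronal protein NeuN, and messenger RNA (mRNA) was sequenced from NeuN+ nuclei (neurons) and NeuN- nuclei (glia). No mouse carried a transgene according to the labels or the study's methods. Sham glia had 2 libraries, as replicate 2 is missing, and the other 3 groups had 3 each. Only kainate mice with convulsive seizures in the first hours had been included, and NeuN- nuclei hold several glial types and other non-neuronal cells. One protocol text gives the right hippocampus, but titles and methods give the left, which is used here.

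MAP kinases (ERK, JNK and p38) relay signals from receptors and stress to the nucleus and are active only while phosphorylated on a threonine and a tyrosine. Dual-specificity MAP kinase phosphatases remove both phosphates, and many of their genes are themselves switched on by MAP kinase signalling, so that they act as feedback inhibitors. In the brain, several of them are known as activity-regulated genes of neurons. Dusp1, Dusp2, Dusp4 and Dusp5 encode inducible phosphatases of the nucleus, Dusp6 and Dusp7 cytoplasmic phosphatases that prefer ERK, and Dusp8, Dusp10 and Dusp16 phosphatases that prefer JNK and p38. Dusp14 encodes a small phosphatase without the domain by which the others bind MAP kinases.

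Total counts ranged from 12058875 to 45428465 per library. An RNA input of 0.05 ng and 15 amplification cycles were used for 2 libraries (sham glia replicate 1, kainate glia replicate 2), against 1 ng and 10 cycles elsewhere. The neuronal marker Rbfox3 was at 171 to 278 normalized CPM (counts scaled to a common library size by the TMM method) in NeuN+ and at 23.8 to 49.2 in NeuN- libraries. All 9 neuronal markers were higher in NeuN+ nuclei of sham mice at a false discovery rate (FDR) below 0.25, while all 9 markers of microglia, 9 of astrocytes, 8 of oligodendrocytes and 6 of oligodendrocyte precursors were lower, with 4 of 6 of pericytes and 1 of 7 of endothelial cells. No marker was at 0 in a whole group. In NeuN- libraries of sham and kainate mice, the astrocyte marker Aldh1l1 was at 20.3 to 53.8 CPM, the microglial Cx3cr1 at 106 to 565, the oligodendrocyte Mbp at 640 to 4705, the precursor marker Pdgfra at 87 to 627, the endothelial Pecam1 at 2.88 to 9.50 and the pericyte Pdgfrb at 12 to 47.0. None of the 54 markers of 7 cell types differed between kainate and sham in either fraction by edgeR. In each fraction 4 had an unadjusted p below 0.05, and DESeq2 called 1 in neurons and 2 in glia. With a term for the replicate number in the model (hereafter the block), 11 were higher (3.19% of all genes) and 6 lower (1.90%) after kainate in neurons, against 2 higher (2.93%) and 19 lower (2.86%) in glia. Summed oligodendrocyte markers ranged from 5047 to 27883 CPM in kainate glia and from 8921 to 39724 in sham glia. Microglial markers ranged from 798 to 2337 and from 773 to 4207, and astrocyte markers from 687 to 3635 and from 1222 to 4651. The part of these differences in the values of the phosphatases was not tested. In such bulk samples, fewer cells of a type and less RNA per cell cannot be told apart.

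Promoter sequences were read for 9 of the 10 genes (RefSeq, GRCm38.p6) as the 250 bases before the annotated start. None was available for Dusp4. Those of Dusp1, Dusp5 and Dusp8 are shown because they hold the CREs and CArG boxes that were found, while their genes differed in how far they moved after kainate. Capitals mark the searched motifs, which are the cyclic AMP response element (CRE, TGACGTCA), its half-site (TGACG), the GC box (GGGCGG) and the CArG box bound by serum response factor.
Dusp1, chr17:26508473-26508722, minus strand: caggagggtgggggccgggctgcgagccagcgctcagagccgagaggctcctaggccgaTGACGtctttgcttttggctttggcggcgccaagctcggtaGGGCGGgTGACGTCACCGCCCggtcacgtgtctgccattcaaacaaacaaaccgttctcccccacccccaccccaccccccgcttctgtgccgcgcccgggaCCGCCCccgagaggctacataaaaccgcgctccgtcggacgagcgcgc
Dusp5, chr19:53528895-53529144, plus strand: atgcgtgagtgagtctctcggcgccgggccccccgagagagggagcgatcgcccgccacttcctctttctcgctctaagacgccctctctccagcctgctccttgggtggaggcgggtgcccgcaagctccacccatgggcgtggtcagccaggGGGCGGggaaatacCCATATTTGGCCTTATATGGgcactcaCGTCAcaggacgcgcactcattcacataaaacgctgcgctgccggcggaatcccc
Dusp8, chr7:142095285-142095534, minus strand: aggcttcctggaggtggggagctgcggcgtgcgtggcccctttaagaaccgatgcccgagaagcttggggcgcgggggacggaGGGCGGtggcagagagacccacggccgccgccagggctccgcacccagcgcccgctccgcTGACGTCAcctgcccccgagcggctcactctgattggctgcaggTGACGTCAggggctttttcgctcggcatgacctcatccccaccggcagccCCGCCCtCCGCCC
Both strands were searched, and each CRE also holds the half-site on both strands. Dusp1 held 1 CRE, at position -143 from the start, and Dusp8 held 2, at positions -107 and -63 from it, while 1.55% of all 32851 promoters of this length held a CRE. Dusp5 held 2 adjoining CArG boxes, at positions -82 and -72, and 1.47% of all promoters held at least 1. The CRE half-site was found in Dusp1, Dusp5, Dusp8 and Dusp16 (17.8% of all promoters). The GC box was found in 7 of the 9 (32.7% of all promoters), that is in all but Dusp6 and Dusp7. A binding site of Egr proteins (GCGGGGGCG), which overlaps a GC box there, was found in Dusp2 and in 2.57% of all promoters. Neither the AP-1 site (TGANTCA, 6.75% of all promoters) nor the TATA box (TATAAA, 12.4%) was found in any of the 9, and the windows of Dusp6 and Dusp7 held none of the 7 motifs. The GC content of the 9 windows ranged from 56.4% in Dusp6 to 77.2% in Dusp7, against a median of 52.4% over all promoters.

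The first comparison asked which phosphatases differed between kainate and sham in neurons. Among the 10 genes, Dusp5 and Dusp4 had the largest log2 fold changes (3.37- and 2.78-fold higher after kainate), followed by Dusp1 at 2.21-fold. Without sham neurons replicate 1, the log2 fold change of Dusp1 (1.86) exceeded that of Dusp4 (1.49). All 10 genes had a positive log2 fold change, with a median of 0.57 against -0.015 over all genes tested. None passed FDR below 0.25 in edgeR's quasi-likelihood test, at which 0.157% of all genes were called higher. The study listed Dusp5 as higher in both neurons and glia at this threshold, with fewer genes kept by its filter. At an unadjusted p below 0.05, Dusp4 and Dusp5 were higher (1.46% of all genes), and DESeq2's Wald test called the same 2 genes at an adjusted p below 0.25 (1.34% of the genes to which it gave an adjusted p). Summed astrocyte markers ranged from 318 to 472 CPM in kainate and from 214 to 288 in sham neurons (with the block described next, 5 of the 9 were higher and 2 lower), and their part in these values was not tested. Kainate and sham libraries of the same replicate number deviated together, so the replicate number was also fitted as a block. With it, Dusp1, Dusp4, Dusp5 and Dusp6 were called higher (3.19% of all genes) and none was called lower (1.90% of all genes).

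Dusp4, chr8:34807297-34819894, encodes a nuclear phosphatase of ERK, JNK and p38. In sham neurons it was at 20.5, 18.2 and 21.2 normalized CPM in replicates 1, 2 and 3, and in kainate neurons at 66.8, 50.2 and 49.4. Every kainate library thus lay above every sham library, and the sham libraries lay close together. The mean was 55.4 ± 9.85 (SD, n = 3) after kainate, and the SD of the sham libraries was 1.57 (n = 3). The log2 fold change was 1.47 (standard error 0.33), at an FDR of 0.276. With the block it was 1.46 (standard error 0.22, FDR = 3.75e-06). DESeq2 gave an adjusted p of 0.00193 for Dusp4, and edgeR fitted to the neuron libraries alone gave an FDR of 0.0328.

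Dusp5, chr19:53529109-53542431, encodes a nuclear phosphatase specific to ERK. It was at 33.4, 14.1 and 20.4 CPM in sham neurons and at 102, 83.8 and 42.8 in kainate neurons. The groups did not overlap, although kainate replicate 3 lay nearer to the sham libraries than to the other two. The log2 fold change was 1.75 (standard error 0.44, FDR = 0.404), and with the block 1.75 (standard error 0.24, FDR = 5.24e-07). DESeq2 gave an adjusted p of 0.0130 and the fit of the neuron libraries alone an FDR of 0.0948. In GENCODE release M21, an antisense gene shares 547 of the 2473 exon bases of Dusp5. The cDNA does not mark strand, so reads from the shared stretch cannot be told apart by strand. How the counting on release M16 treated such reads is not known.

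Dusp1, chr17:26505590-26562128, an immediate early gene whose product dephosphorylates p38, JNK and ERK, was at 42.5, 16.9 and 12.1 CPM in sham neurons and at 54.0, 54.6 and 48.7 in kainate neurons. All kainate libraries were above all sham libraries, which spread more widely. Its log2 fold change was 1.14 (standard error 0.55, FDR = 1.00), and with the block 1.36 (standard error 0.22, FDR = 1.51e-05). Dusp1, Dusp4 and Dusp5 were the 3 genes whose groups did not overlap in neurons, as was the case with kainate higher for 4.26% of all genes. Within same-numbered libraries, kainate exceeded sham in 3 of 3 pairs for each of them, by 1.27- to 4.03-fold for Dusp1, 2.33- to 3.26-fold for Dusp4 and 2.10- to 5.93-fold for Dusp5.

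Dusp6, chr10:99263231-99267489, the cytoplasmic phosphatase of ERK, was at 78.0, 36.6 and 40.2 CPM in sham neurons and at 160, 95.4 and 53.9 in kainate neurons. Here the groups overlapped, since kainate replicate 3 lay below sham replicate 1. Kainate nevertheless exceeded sham in 3 of 3 same-numbered pairs, by 1.34- to 2.61-fold. The log2 fold change was 1.00 (standard error 0.50, FDR = 1.00) without the block and 0.95 (standard error 0.20, FDR = 0.00102) with it. Without single libraries it ranged from 0.53 to 1.42 without the block and from 0.73 to 1.21 with it.

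The other 6 phosphatases were not called in neurons with or without the block, and their log2 fold changes without it ranged from 0.016 for Dusp2 to 0.67 for Dusp14. Dusp14 came nearest, with a block FDR of 0.270, and was at 35.3, 17.7 and 15.9 CPM in sham neurons and 46.8, 46.3 and 16.4 in kainate neurons. Its kainate replicate 3 lay among the sham values. Dusp7 was higher after kainate in 3 of 3 pairs, but by only 1.22- to 1.37-fold. The JNK and p38 phosphatases Dusp8, Dusp10 and Dusp16 had block log2 fold changes of 0.11, 0.48 and 0.21. Dusp8, whose promoter held 2 CREs, had levels in sham (75.4 to 143 CPM) and kainate neurons (67.2 to 171 CPM) that covered nearly the same range. Leaving out single libraries from the block fit, an analysis added after the data were seen, left Dusp1, Dusp4, Dusp5 and Dusp6 called in 11 of 11 fits. Dusp10 was also called in 4 of these fits, and Dusp14 in 5. The fits are not independent checks, since those without a glia library keep every neuron library. Leaving out either library of a neuron pair takes the same pair out of the kainate effect. The share of all genes called in these fits is not given here.

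**Figure D1:**
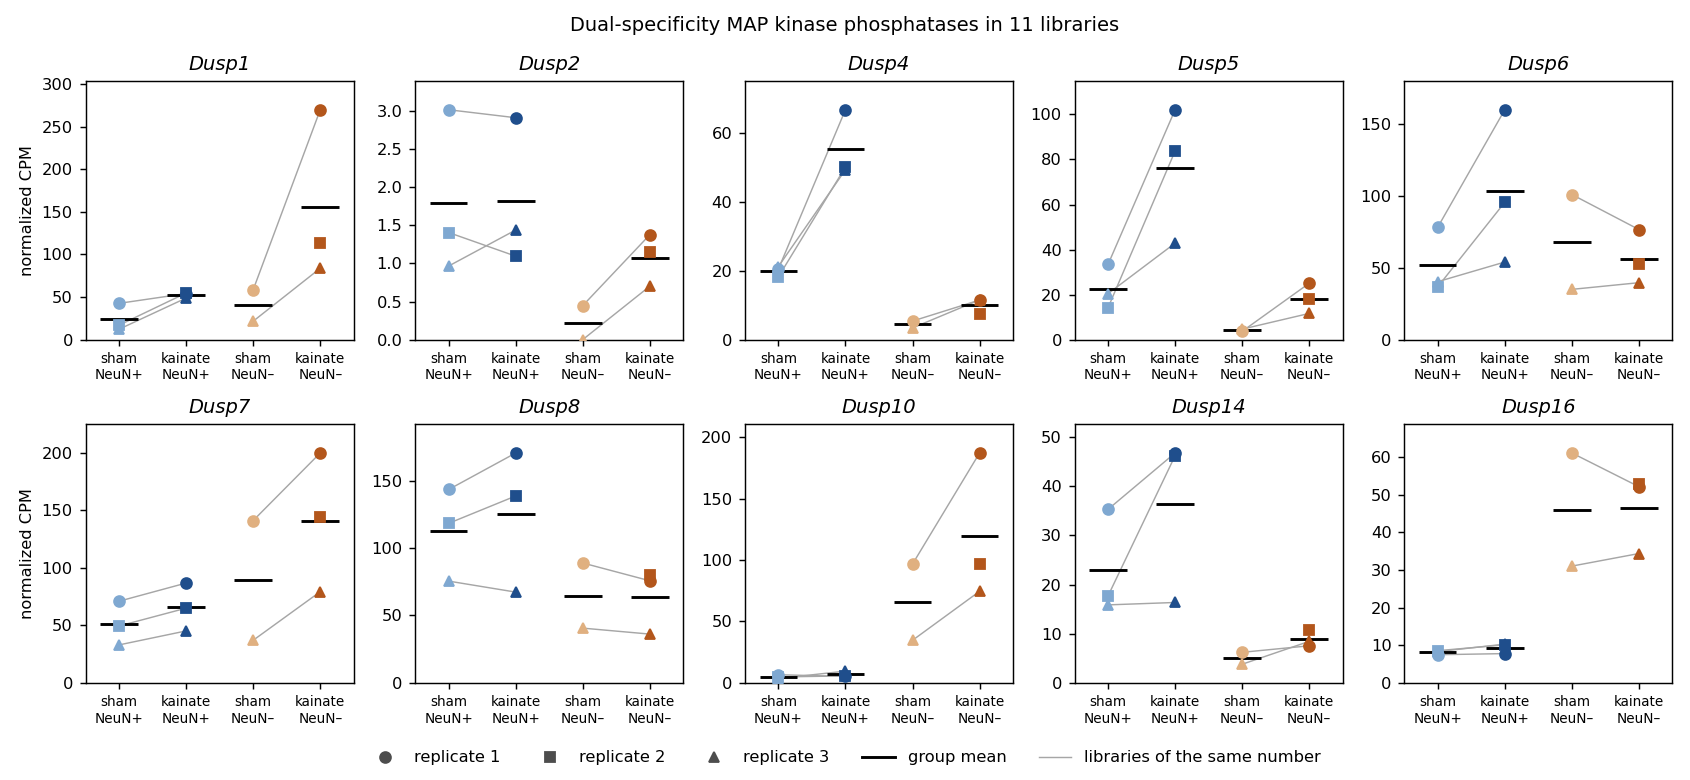
Normalized CPM (linear axis from 0, scaled separately in each panel) of the 10 phosphatase genes in each of the 11 libraries, with symbols for the replicate number, black bars for group means and grey lines joining kainate and sham libraries of the same number. For Dusp4 the 3 kainate neuron libraries sit between 49.4 and 66.8 CPM, above sham neurons at 18.2 to 21.2, while Dusp10 and Dusp16 are higher in every NeuN- than in every NeuN+ library.

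In glia, Dusp5, Dusp1 and Dusp4 were again higher after kainate, by 4.38-, 3.89- and 2.33-fold in the fit without the block, and Dusp2 was found at low counts. Of the 10 genes, 8 had a positive log2 fold change, with a median of 0.86 against 0.023 over all genes. None was called by edgeR at FDR below 0.25, where 0.0933% of all genes were called higher. At an unadjusted p below 0.05, Dusp1, Dusp4 and Dusp5 were higher (1.35% of all genes), and DESeq2 called the same 3 genes (1.07% of those with an adjusted p). With the block, Dusp1, Dusp2, Dusp4, Dusp5, Dusp7 and Dusp10 were called higher (2.93% of all genes) and none lower (2.86% of all genes). The block rests on 2 pairs in glia, because the sham partner of kainate glia replicate 2 is missing. In the pair of replicate 1, a sham library of 0.05 ng RNA input is set against a kainate library of 1 ng.

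Dusp1 was at 58.5 and 21.5 normalized CPM in sham glia (replicates 1 and 3) and at 270, 113 and 83.7 in kainate glia (replicates 1, 2 and 3). The groups did not overlap, and the 2 same-numbered pairs differed by 4.61- and 3.89-fold. The log2 fold change of Dusp1 was 1.96 (standard error 0.65, FDR = 1.00), and with the block 2.08 (standard error 0.27, FDR = 1.25e-07). Without the block it was 1.17 when kainate glia replicate 1 was left out, but was 2.88 when sham glia replicate 1 was, and with the block the Dusp1 value stayed between 1.93 and 2.21 without single libraries.

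Dusp5 was at 3.64 and 4.61 CPM in sham glia and at 25.02, 17.8 and 11.6 in kainate glia. Its lowest kainate library lay well above both sham libraries. The log2 fold change was 2.13 (standard error 0.53, FDR = 0.654), and with the block 2.03 (standard error 0.32, FDR = 1.20e-05). For Dusp5 the block value was 1.33 without sham glia replicate 1 and 1.30 without kainate glia replicate 1, against 2.78 without replicate 3 of either group.

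For Dusp4 the values were 5.37 and 3.37 CPM in sham glia and 11.5, 7.47 and 11.5 in kainate glia, again without overlap. Its log2 fold change was 1.22 (standard error 0.38, FDR = 1.00), and with the block 1.43 (standard error 0.29, FDR = 0.000916). These levels lay below those of sham neurons (18.2 to 21.2 CPM).

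Dusp2, chr2:127336159-127338376, an inducible nuclear phosphatase best known from activated immune cells, had raw counts of 7 and 0 in sham glia and of 22, 34 and 25 in kainate glia. At such counts the size of the change is poorly determined, and it was 1.24 on the log2 scale without sham glia replicate 3 (1.61 with the block), the library at 0. Without sham glia replicate 1 the comparison is with that library alone, which gives no fold. The fitted log2 fold change was 2.30 (standard error 1.12, FDR = 1.00), and 2.59 with the block (standard error 0.84, FDR = 0.0903). DESeq2 gave it no adjusted p. In neurons its raw counts were 30 to 49 in sham and 32 to 43 after kainate.

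Dusp10, chr1:184013302-184075636, a phosphatase of JNK and p38, was at 96.6 and 34.6 CPM in sham glia and at 187, 97.0 and 74.4 in kainate glia. The groups overlapped, but the pairs differed by 1.94- and 2.15-fold in the same direction. The log2 fold change was 0.87 (FDR = 1.00) without the block and 1.03 with it (standard error 0.26, FDR = 0.0139). For Dusp10 the value without the block was 0.26 without kainate glia replicate 1, 0.30 without sham glia replicate 3, but 1.82 when replicate 1 of sham glia was left out. Dusp7, the other cytoplasmic ERK phosphatase, behaved alike at 141 and 36.9 CPM in sham and 200, 144 and 79.2 in kainate glia, with a block log2 fold change of 0.80 (FDR = 0.0371). Both genes differed more between replicates 1 and 3 of one treatment than between kainate and sham of one number.

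Dusp14 was at 6.20 and 3.77 CPM in sham glia and at 7.53, 10.8 and 8.43 in kainate glia. Its groups did not overlap, yet it was not called with the block (log2 fold change 0.73, FDR = 0.359). Together with Dusp1, Dusp2, Dusp4 and Dusp5, it made 5 genes with every kainate glia library above every sham glia library, as was the case for 4.70% of all genes. Dusp6, Dusp8 and Dusp16 had block log2 fold changes of -0.11, -0.20 and -0.041 in glia, none of them called. Dusp6 was at 101 and 34.9 CPM in sham and 76.5, 52.7 and 39.5 in kainate glia, so that all kainate values lay between the sham values.

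In the block fits with 1 library left out, Dusp1, Dusp4, Dusp5 and Dusp10 were called in glia in 11 of 11 fits. Dusp2 and Dusp7 were called in 9, of which 2 set Dusp2 against the library at 0 alone, and lost their call without kainate glia replicate 3 (FDR = 0.411 and 0.474) or sham glia replicate 3 (FDR = 0.428 and 0.561). Dusp14 was called in glia in 2 of the 11 fits, those without sham or kainate neurons replicate 2. Fits without a neuron library keep every glia library, so the fits are not independent checks. Leaving out a glia library numbered 1 or 3 leaves 1 pair of glia in the block and, for a sham library, a single sham glia library. The spread is then taken from the other groups, and the lone library is assumed to vary like them. The same holds without both low-input libraries, where the 6 genes were also called.

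**Figure D2:**
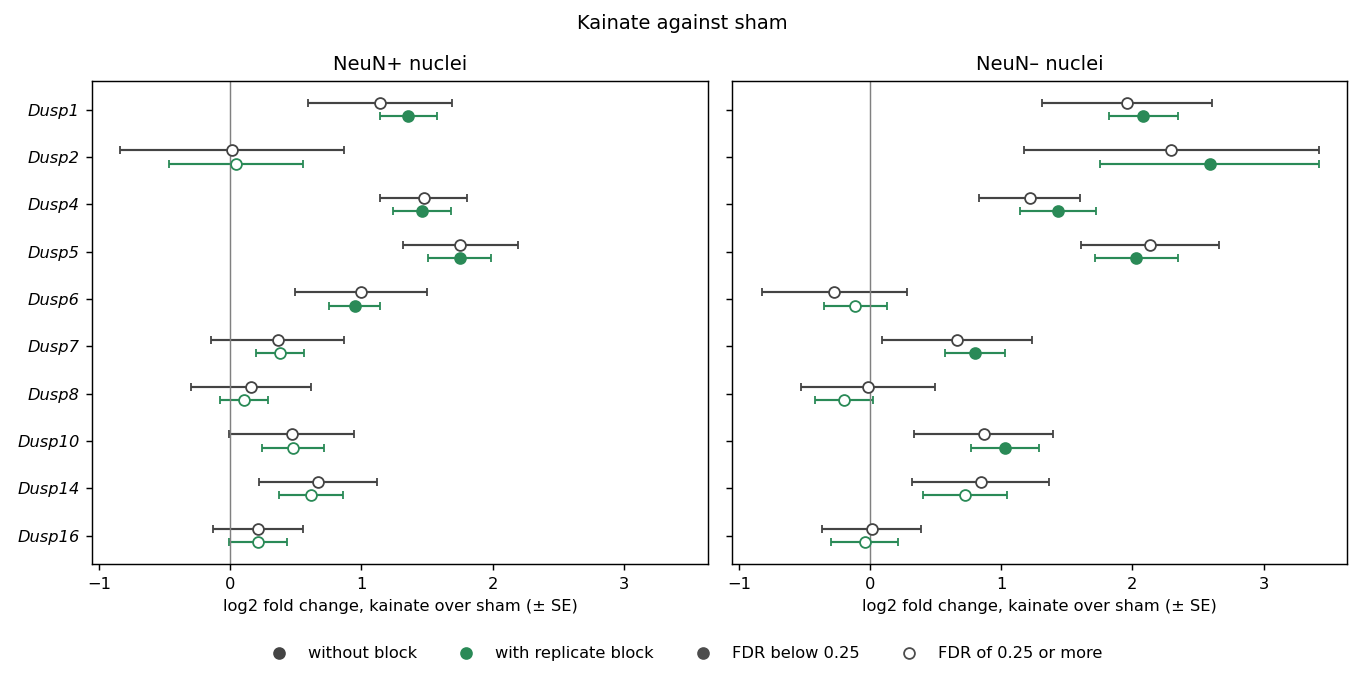
Log2 fold change of kainate over sham (± standard error) of each phosphatase gene in NeuN+ (left) and NeuN- nuclei (right), from the edgeR fit without (grey) and with the replicate number as a block (green), with filled points for FDR below 0.25. Values of both fits lie close together for each gene, and the filled points are 4 genes in NeuN+ and 6 in NeuN- nuclei, all of them with the block.

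Whether the kainate effect differed between neurons and glia was tested as an interaction. No phosphatase was called by edgeR without the block (0.00246% of all genes were), and none had an unadjusted p below 0.05 or was called by DESeq2, which gave Dusp2 no adjusted p. With the block, 1.94% of all genes were called, among them Dusp6, whose log2 fold change was greater in neurons by 1.06 (standard error 0.31, FDR = 0.0994). Of the 54 cell-type markers, the same fit called 14, all greater in neurons like Dusp6 (6 of 9 of astrocytes, 3 of 9 of microglia, 3 of 6 of oligodendrocyte precursors, and 1 each of oligodendrocytes and pericytes), and their part in the Dusp6 difference was not tested. With the pool as a block in place of the replicate number, 0.0221% of all genes were called and no phosphatase. The Dusp6 call was lost without sham glia replicate 1, a low-input library at 101 CPM (difference 0.76, FDR = 1.00), and without kainate glia replicate 1 (difference 0.75, FDR = 1.00). Each of these fits holds 1 glia pair, as does the fit without kainate glia replicate 3, which kept the call. For Dusp4 and Dusp5 the differences with the block were 0.025 (standard error 0.37) and -0.28 (standard error 0.39). The Dusp1 effect was smaller in neurons by 0.73 on the log2 scale (standard error 0.33, FDR = 0.674). That difference was called without sham neurons replicate 2 (FDR = 0.0621), sham neurons replicate 3 (FDR = 0.248) or kainate neurons replicate 2 (FDR = 0.0610). Over all block fits without single libraries, the Dusp1 difference (neurons minus glia) ranged from -1.06 to -0.23. Dusp2 was called without sham glia replicate 1 (FDR = 0.142) or kainate glia replicate 1 (FDR = 0.148), fits in which the only sham glia library that still had a kainate partner held 0 counts of it.

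The fractions were compared next. In sham mice, Dusp4, Dusp5, Dusp14 and Dusp2 were higher in neurons (9.11% of all genes were called higher) and Dusp10 and Dusp16 were lower (7.63% of all genes). Dusp10 had the largest difference, at 3.42 to 6.51 CPM in the 3 sham neuron libraries against 96.6 and 34.6 in sham glia. Dusp10 was thus 13.5-fold lower in neurons (log2 fold change -3.75, standard error 0.54, FDR = 0.00147), and its value was -2.79 if sham glia replicate 1 was left out, or -4.32 if replicate 3 was, called in both. Dusp16, whose product dephosphorylates JNK and p38, was at 7.45, 8.53 and 8.28 CPM in sham neurons and at 61.2 and 31.0 in sham glia. The groups were far apart, and the log2 fold change was -2.51 (standard error 0.38, FDR = 0.00161), or -1.90 without sham glia replicate 1. Thus 2 of the 3 JNK and p38 phosphatases were lower in neurons, whereas the third, Dusp8, had a positive log2 fold change of 0.80 that was not called (FDR = 0.524).

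Among the genes higher in neurons, the nuclear ERK phosphatase Dusp5 was higher in sham neurons than in sham glia by 2.45 on the log2 scale (standard error 0.53, FDR = 0.00949). Dusp4 was higher by 2.19 (standard error 0.40, FDR = 0.00346) and Dusp14 by 2.20 (standard error 0.55, FDR = 0.0211). Dusp2 was higher by 3.03 (standard error 1.15, FDR = 0.149), resting on 30 to 49 counts against 7 and 0. Its call was lost without sham neurons replicate 1 (FDR = 0.357) and without sham glia replicate 3 (1.98). Without sham glia replicate 1, the other sham glia library was at 0 and there was no fold. With the pool as a block, Dusp8 (0.79, FDR = 0.0464) was also called higher, among 18.3% of all genes, and Dusp7 (-0.58, FDR = 0.195) lower, among 15.7% of all genes.

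After kainate, Dusp4 (2.45, standard error 0.34), Dusp5 (2.07, standard error 0.44) and Dusp14 (2.03, standard error 0.47) were higher in neurons at FDRs from 0.00122 to 0.0114, among 11.3% of all genes. Dusp10 (-4.15, standard error 0.53) and Dusp16 (-2.31, standard error 0.36) were lower, with FDRs of 0.00122 and 0.00131, as were Dusp1 (-1.57, standard error 0.55, FDR = 0.103) and Dusp7 (-1.10, standard error 0.51, FDR = 0.240), among 9.39% of all genes. Dusp1 was at 48.7 to 54.6 CPM in kainate neurons and 83.7 to 270 in kainate glia. Its call was lost without kainate glia replicate 1 (-0.87, FDR = 0.349) and without kainate neurons replicate 2. The call of Dusp7 (FDR of up to 0.465) was lost on leaving out replicate 1, 2 or 3 of kainate neurons, 2 or 3 of sham neurons, and 1 or 2 of kainate glia. With the pool as a block, Dusp6 and Dusp8 were added among the genes higher in neurons (21.4% of all genes), and the 4 lower ones stayed called (27.9% of all genes). Dusp2 was not called after kainate in either fit. The members' median log2 fold changes were 0.20 in sham and 0.81 after kainate, against -0.37 and -0.47 over all genes.

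**Figure D3:**
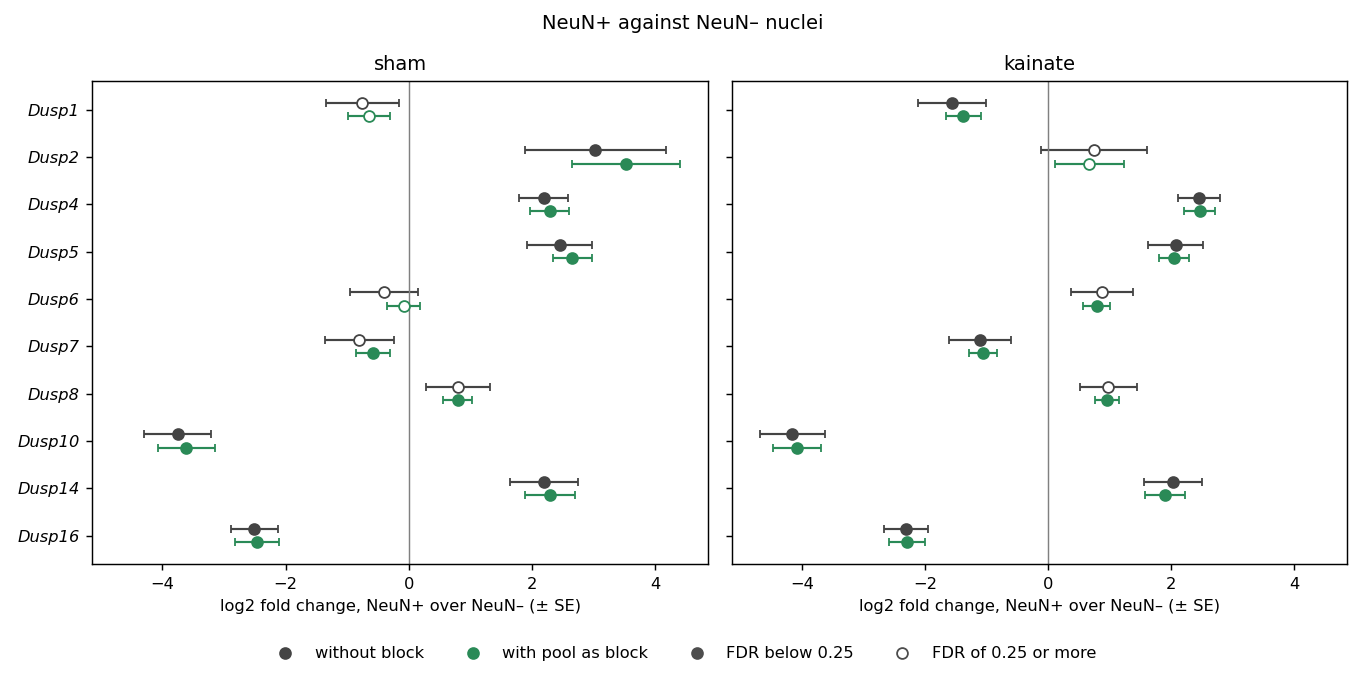
Log2 fold change of NeuN+ over NeuN- nuclei (± standard error) of each phosphatase gene in sham mice (left) and after kainate (right), without a block (grey) and with the pool as a block (green), with filled points for FDR below 0.25. Dusp4, Dusp5 and Dusp14 lie to the right of 0 and Dusp10 and Dusp16 to its left in both panels.

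Compared per length as TPM, which divides counts by exon length and was computed over the genes tested, Dusp8 had the highest mean in sham neurons at 82.9 TPM, followed by Dusp6 (57.7), Dusp7 (53.9), Dusp14 (41.1), Dusp5 (32.2), Dusp4 (27.0) and Dusp1 (24.3). Neighbours among these 7 did not differ beyond the range of their libraries. Dusp10 (5.73 TPM), Dusp16 (3.90 TPM) and Dusp2 (3.07 TPM) were lower, and only the steps from Dusp1 to Dusp10 and from Dusp10 to Dusp16 were free of overlap. In kainate neurons Dusp6 (111 TPM) and Dusp5 (105 TPM) were first and second, with Dusp8 at 87.6 and Dusp4 at 71.2. The ranges of neighbours among these genes overlapped.

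In sham glia the order by mean TPM began with Dusp7 (91.9), Dusp10 (78.0) and Dusp6 (78.0), whose ranges overlapped, and ended with Dusp5 (7.39), Dusp4 (6.31) and Dusp2 (0.323). After kainate, Dusp1 was the highest in glia at 180 TPM, ahead of Dusp7 at 166 and Dusp10 at 154, with overlapping ranges. These 3 lay above Dusp6 at 72.1 without overlap. Dusp1 had been the fifth in sham glia at 43.9 TPM.

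**Figure D4:**
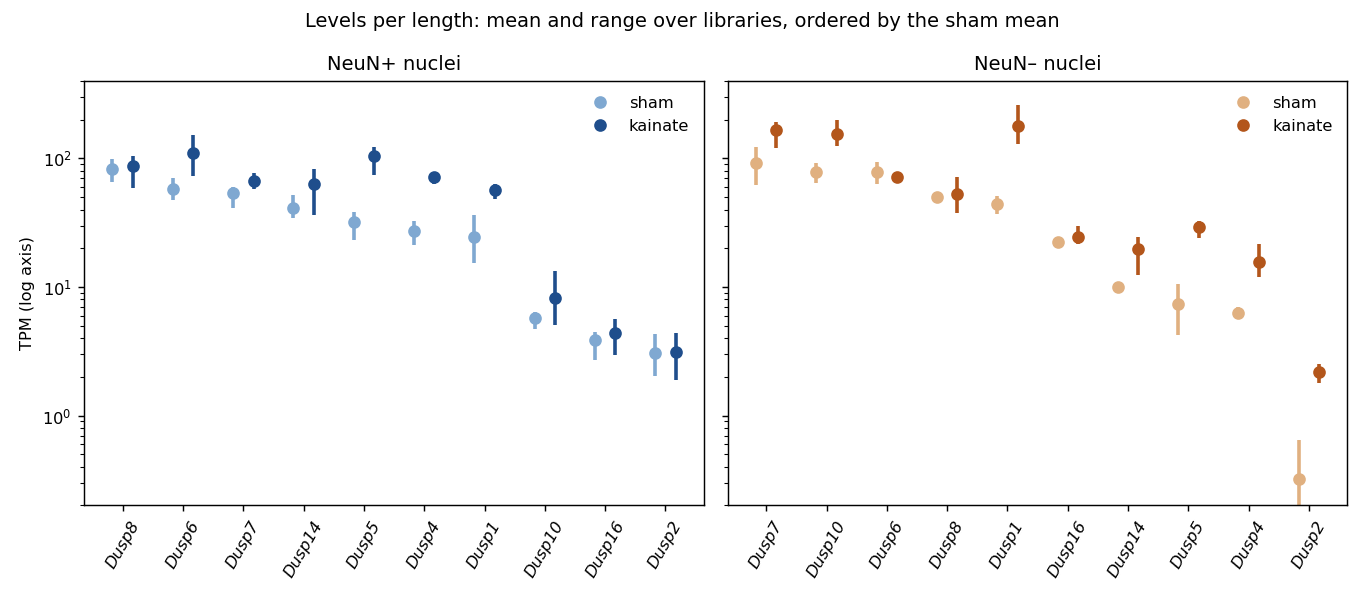
TPM (log axis) of each phosphatase gene in NeuN+ (left) and NeuN- nuclei (right), with points for the group mean and bars for the range over 2 or 3 libraries, ordered by the mean in sham. The range of Dusp2 in sham glia reaches 0 and is cut off at the lower end of the axis. Dusp1 in NeuN- nuclei moves from 43.9 TPM in sham to 180 TPM after kainate, the highest mean of that fraction.

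Over the 11 libraries, the log2 CPM of Dusp10 and Dusp16 had a Pearson correlation of 0.97 and those of Dusp4 and Dusp5 of 0.92, while Dusp4 and Dusp16 had one of -0.78. These are descriptions over libraries that differ in fraction, treatment and replicate number. Among 24722 genes with a mean of at least 1 CPM, the patterns most like that of Dusp5 were those of Noct (0.99), Egr3 (0.97), Egr4 (0.97), Fosl2 (0.96) and Bdnf (0.96). Egr3, Egr4 and Fosl2 encode activity-regulated transcription factors and Bdnf a neurotrophin. For Dusp4 they were those of Zfp623, Lrp8, Qtrt2, Gm7390 and Spsb3, each at 0.97. None of these 10 genes was called between kainate and sham in either fraction without the block.

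Among other genes of the MAP kinase pathway, 20 transcription factors that respond to ERK signalling were looked at as a list chosen with earlier results known. In neurons, 4 of the 20 rose at FDR below 0.25 (0.157% of all genes were called higher) and none fell, with a median log2 fold change of 1.36 against -0.015 over all genes. These were Fosb (3.30, FDR = 0.108), Ier2 (2.24, FDR = 0.150), Fos (3.09, FDR = 0.150) and Egr2 (2.63, FDR = 0.153). In glia, 5 of the 20 rose (0.0933% of all genes) and none fell, with a median of 2.20 against 0.023, and Fos (5.67, FDR = 0.0763), Myc (2.92, FDR = 0.0763), Egr1 (4.21, FDR = 0.0815) and Junb (3.78, FDR = 0.105) had the smallest p-values. With the block, 13 of the 20 were called higher (3.19% of all genes) and 1 lower (1.90%) in neurons, and 13 higher (2.93%) and 2 lower (2.86%) in glia. For the difference of effects none was called by edgeR or DESeq2, 6 had an unadjusted p below 0.05, and Fosl1 had the smallest p (-1.93, FDR = 1.00, block FDR = 0.0316). With the block, 2 of the 20 were called higher and 6 lower, among 1.94% of all genes.

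The other 7 lists of the pathway, 81 genes tested of 83, held kinases, tyrosine phosphatases, Sprouty and Spred inhibitors and further dual-specificity phosphatases. None was called by edgeR between kainate and sham in either fraction, with 15 genes in neurons and 6 in glia at an unadjusted p below 0.05 (849 and 834 of all 40714 genes). DESeq2 called 5 and 2, where it called 1.34% and 1.07% of all genes with an adjusted p higher. With the block, 20 of the 81 were higher (against 3.19% of all genes) and 4 lower (1.90%) in neurons, and 12 higher (2.93%) and 3 lower (2.86%) in glia. Taking the gene with the smallest p of each list, those in neurons included the atypical MAP kinase gene Mapk4 (log2 fold change 1.37, FDR = 0.313, block FDR = 2.38e-06), the ERK inhibitor Spred1 (1.44, FDR = 0.758, block FDR = 1.39e-07) and the kinase Mapkapk3 (1.41, FDR = 0.588, block FDR = 0.000428). In the other lists they were the p38-activating kinase Map2k3 (0.85, FDR = 1.00, block FDR = 0.00202), the ERK phosphatase Ptpn5 (0.73, FDR = 1.00, block FDR = 0.00877), Map3k8 (0.81, FDR = 1.00, block FDR = 0.0769) and Dusp9 (1.29, FDR = 1.00, block FDR = 0.470).

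In glia the smallest p of each list belonged to Map3k6 (log2 fold change 2.45, FDR = 0.788, block FDR = 9.53e-10), Mapkapk2 (1.02, FDR = 1.00, block FDR = 0.00216), Map2k3 (1.00, FDR = 1.00, block FDR = 0.00155), Mapk6 (1.09, FDR = 1.00, block FDR = 0.00127), Spred3 (0.90, FDR = 1.00, block FDR = 0.00899) and Ptprr (-0.71, FDR = 1.00, block FDR = 0.543). Of the other 20 dual-specificity phosphatases, 19 were tested. Their median log2 fold change was 0.029 in neurons and -0.25 in glia, where the block called 3 lower (2.86% of all genes), among them Dusp15 (-1.23, FDR = 1.00, block FDR = 0.00019), and none higher. Between the fractions in sham mice, 4 of these 19 were called, near the share of all genes (9.11% higher and 7.63% lower), with Dusp18 (2.14, FDR = 0.00705) higher in neurons and Dusp15 (-2.76, FDR = 0.0164), Dusp26 (-2.20, FDR = 0.0181) and Ssh2 (-1.31, FDR = 0.0740) lower.

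Of the other genes of the pathway, 22 of the 81 were called higher in neurons (9.11% of all genes) and 11 lower (7.63%) in sham mice, and 23 (11.3%) and 9 (9.39%) after kainate. With the pool as a block, 37 were higher (18.3% of all genes) and 12 lower (15.7%) in sham mice, and 44 (21.4%) and 17 (27.9%) after kainate. Among MAP kinases, Mapk11 and Mapk10, which encode isoforms of p38 and JNK, were higher in neurons by 3.07 and 2.40 on the log2 scale in sham and by 2.97 and 2.19 after kainate. In sham mice Mapk15 (1.47) was higher and Mapk6 (-1.29) lower, and after kainate Mapk4 (1.55) and Mapk12 (1.57) were higher. The MAP kinase kinase genes Map2k6 (1.31 in sham, 1.28 after kainate), Map2k3 (1.25, 1.10) and Map2k4 (1.46, 1.22) were higher in neurons in both treatments. Of the kinases above them, Map3k12 (1.79, 1.71), Map3k9 (1.82, 1.83) and Map3k10 (1.26, 1.24) were higher in both. Map3k1 (-2.12 in sham) and Map3k6 (-2.13 after kainate) were lower. Mapk4, Mapk6 and Map3k1 were called in both treatments. Each is given only where it was among the 4 genes of its list with the smallest p. The tyrosine phosphatase genes Ptpn5 (2.57, 2.78) and Ptprr (1.87, 2.19) were higher in neurons in both treatments. Each value named here was called at FDR below 0.25.

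The ERK inhibitor gene Spred2 (1.21 in sham, 1.41 after kainate) was higher in neurons and Spry1 (-1.23, -1.18) lower, and in sham mice Il17rd (0.98) was higher and Spry4 (-1.45) lower. Among kinases that MAP kinases activate, Rps6ka2 (2.14, 1.63) was higher and Rps6ka1 (-1.99, -1.97) lower in neurons. In sham mice Rps6ka4 (1.14) was higher and Mapkapk3 (-1.32) lower, and after kainate Rps6ka6 (1.49) was higher and Rps6ka5 (-1.004) lower. After kainate 4 of the 19 further dual-specificity phosphatases were called, near the share of all genes (11.3% higher and 9.39% lower), with Dusp18 (1.75) and Dusp28 (1.10) higher and Dusp15 (-1.49) and Ssh2 (-0.95) lower. Of the 20 transcription factors, 10 were called higher in neurons (9.11% of all genes) and 1 lower (7.63%) in sham mice, and 6 (11.3%) and 3 (9.39%) after kainate. With the pool as a block these counts were 10 (18.3% of all genes) and 4 (15.7%) in sham mice, and 7 (21.4%) and 6 (27.9%) after kainate. They were led by Egr4 (3.08, 2.45), Egr3 (2.81, 2.21) and Etv4 (-3.97, -2.40) in both, Egr1 (2.21) in sham and Myc (-2.08) after kainate. For the difference of effects, none of the 81 genes was called by DESeq2 or by edgeR without the block and 1 had an unadjusted p below 0.05, while with the block 4 were called higher and 1 lower (1.94% of all genes). The smallest p of each list belonged to Dusp26 (1.602, block FDR = 0.00114), Map3k6 (-1.58, block FDR = 0.00107) and Spred1 (1.26, block FDR = 0.0318), and to Ptprr (0.32), Mapk12 (1.09), Map2k1 (-0.31) and Rps6ka6 (1.44), which the block did not call. Each of these 7 had an FDR of 1.00 without the block.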

How the data were processed

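Messenger RNA was sequenced from 11 libraries of sorted nuclei, each from a pool of mice, so p-values without a block measure the spread between pools. In the block fits, spread shared by same-numbered libraries is removed, and little is left to measure the spread of a single gene. Their p-values rest largely on variances that edgeR shares across genes. The authors trimmed the reads (Trim Galore 0.4.3), mapped them to mm10 (GRCm38) with Rsubread and, with featureCounts, assigned unique alignments to genes of GENCODE release M16. The deposited values are these raw counts. Reads had no molecular identifiers, so counts are not numbers of independent molecules. Sequencing used single reads or paired reads on different instruments, and which library had which is not given in the labels. SMART-Seq cDNA does not mark strand, and the strand setting of the counting is not given in the sources used here. The 11 bisulfite samples were not analysed here.

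No symbol was found for 105 genes, and filterByExpr (minimum count 10, minimum total 15) kept 40714 genes. Counts were scaled by TMM, and edgeR's quasi-likelihood model (legacy=TRUE) had the 4 groups as means and held all libraries. P-values were adjusted over all genes by the Benjamini-Hochberg method, and FDR below 0.25, the study's threshold, was used for calls. Standard errors are the fold change over the root of the F statistic. In the check of the pairing, deviations of same-numbered kainate and sham libraries from their group means correlated at 0.643, 0.161 and 0.491 in neurons and at 0.76 and 0.787 in glia, all over 0.1, so the replicate number was also used as a block. Alternatives were DESeq2's size factors and Wald test, no filter, a CPM of at least 1 in 3 libraries, a separate fit per fraction, edgeR's newer method, FDR below 0.05, blocks by replicate number or pool, RNA input as a covariate, and fits without each library or without both low-input ones. Block fits without single libraries were chosen after seeing the data. CPM use TMM factors, and TPM use exon lengths of GENCODE release M21 on the same build, from which coordinates were taken. Promoters are of RefSeq. Only the fit without a block was run on simulated counts, which held no replicate effect, and no outcome is given here. DESeq2 1.42.0, edgeR 4.0.16 and limma 3.58.1 were run in R 4.3.3.

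All 10 members were named in every comparison. Of each pathway list, the called members with the smallest p (at most 4) were named, or otherwise the 1 with the smallest p, with the first gene of a marker list and the 5 genes of most similar pattern. The members and lists were chosen with earlier results of these data known.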

Additional observations from a re-analysis of the deposited data

Results flagged for a closer look

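The kainate effect on Dusp6 differed between neurons and glia in the test of the difference with the replicate number as a block (1.06 on the log2 scale, standard error 0.31, FDR = 0.0994). Kainate exceeded sham in 3 of 3 pairs in neurons and in 1 of 2 pairs in glia. The block fit without kainate glia replicate 3, which holds 1 pair of glia libraries, also called the difference. Without the block the difference was 1.27 (standard error 0.74, FDR = 1.00) and with the pool as a block 0.87, and neither was called. The difference without a block was 0.28 without sham glia replicate 1, 1.85 without sham glia replicate 3 and 0.24 without both low-input libraries. The FDR in the other settings without a block ranged from 0.348 to 1.00. It was 1.00 in the block fit without sham glia replicate 1, kainate glia replicate 1 or both low-input libraries, fits that each hold 1 pair of glia libraries.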

How the results depend on the processing

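Of the values computed under other settings, 879 without a block kept their direction and side of the threshold, 49 gained and 16 lost a call, and 49 reversed. With a block the numbers were 308, 18, 7 and 27. No reversed value was called, and the cause was not tested. The 5 genes Dusp4, Dusp5, Dusp10, Dusp14 and Dusp16 were called between the fractions, in sham and after kainate, under 18 of 18 other settings. Of the counts for the other gene lists, 688 stayed within 1.5 times and 96 did not. Depth limits mainly Dusp2, with 0 to 49 counts per library.

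Members called between kainate and sham in neurons numbered 2 with DESeq2's Wald test, with genes kept at 1 CPM in 3 libraries and with a separate fit per fraction, 1 with the newer quasi-likelihood method and without both low-input libraries, and 0 to 2 without single libraries (2 without sham glia replicate 3). In glia they numbered 3 with DESeq2 and 0 to 1 without single libraries (1 without sham glia replicate 3). With the replicate block they numbered 4 in neurons, 6 in glia and 1 for the difference of effects, against 0 for each without it. The shares of all genes given above are those of DESeq2 and of edgeR on all libraries with and without a block. For the other settings they are not given here. Leaving out single libraries under the block gave 4 to 5, 4 to 7 and 1 to 2, and the 2 were found without sham neurons replicate 2 or 3 or kainate neurons replicate 2. Without a block, 6 members were called between fractions in sham mice, among 9.11% of all genes higher and 7.63% lower in neurons. After kainate they numbered 7, among 11.3% higher and 9.39% lower. Leaving out a single library of a group of 3 gave 6 to 7 in sham and 5 to 8 after kainate.

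Log2 fold changes that reversed between kainate and sham were -0.023 for Dusp2 in neurons with no filter. In glia Dusp6 was 0.76 without both low-input libraries (0.18 with the replicate block). Dusp8 was 0.019 with a separate fit, 0.19 with low RNA input as a covariate and 0.49 without both low-input libraries. Dusp16 was -0.081 with DESeq2's size factors and with its Wald test, -0.037 with no filter and -0.041 with the replicate block, where it was 0.15 without both low-input libraries. For the difference of effects without both low-input libraries, Dusp4 was -0.31 with and without the block, Dusp5 0.42 with it, Dusp8 -0.33 and Dusp16 -0.29, and Dusp8 was -0.034 with the covariate. Between fractions in sham without both low-input libraries, Dusp1 was 0.18, Dusp6 0.60 and Dusp7 0.51, and Dusp6 was 0.028 with the covariate.

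Without single libraries, values that reversed ranged in neurons from -0.49 to 0.60 for Dusp2 and from -0.13 to 0.46 for Dusp8, and with the block from -0.21 to 0.25 for Dusp2 and from -0.031 to 0.84 for Dusp10. In glia the ranges were -0.85 to 0.72 for Dusp6 (-0.40 to 0.18 with the block), -0.0080 to 1.96 for Dusp7, -0.48 to 0.69 for Dusp8 and -0.40 to 0.61 for Dusp16 (-0.23 to 0.15 with the block). For the difference of effects they were -0.14 to 0.57 for Dusp4 (-0.33 to 0.37 with the block), -0.64 to 0.013 for Dusp5 (-1.06 to 0.42), -1.60 to 0.37 for Dusp7, -0.52 to 0.64 for Dusp8, -1.35 to 0.20 for Dusp10, -0.60 to 0.28 for Dusp14 (-0.56 to 0.34) and -0.40 to 0.62 for Dusp16. Between fractions in sham they were -1.47 to 0.18 for Dusp1, -0.97 to 0.60 for Dusp6 and -1.47 to 0.51 for Dusp7.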
